A study of Drosophila melanogaster with 28 samples.

Results

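The genes described here are 8 Drosophila genes of ribosomal RNA (rRNA) transcription and nucleolar growth: Tif-IA, udd, wcd, Nop60B, Fib, mod, Nopp140 and Myc. They were chosen by name, and all 8 had a row in both deposited tables, out of 13884 genes that had one. The tables hold RNA-seq, which measures the level of each mRNA, and Ribo-seq, which sequences the mRNA fragments covered by ribosomes. Both were made from whole adult ovaries of females of the same genotype in every group. They carried w;nosP-GAL4-NGT40/+, where nosP-GAL4-NGT40 is a germline driver, and the allele bam86 on both copies of the bam chromosome, with the insertion P{w[+mC]=hs-bam.O}11d on 1 of them. These flies are mutant for bam, the gene that starts differentiation of the germline stem cell (GSC), so their ovaries fill with GSC-like cells. The insertion is a bam transgene under a heat shock promoter, which restores Bam briefly. Females were kept at 37 °C for 1 h and at 34 °C for 2 h, were returned to 25 °C, and were collected 0.5, 5, 9, 18, 28 or 38 h after heat shock (AHS). The unheated group is called no HS. Each of the 7 time points had 2 replicate libraries per assay, 28 libraries in all.

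Some properties of the material bear on every value. The promoter of the transgene responds to heat in all cells of the fly and not in the germline alone, and the no HS group was never heated, so Bam, heat and elapsed time cannot be told apart in a comparison with no HS. The ovary also contains somatic cells, and in bulk samples fewer cells of a type and less RNA per cell cannot be told apart. The 4 germline markers vas, nos, aub and piwi were above 10 FPKM at every time point in both assays, where FPKM is the number of fragments scaled to the length of the gene and to the mapped fragments of the library. Of 6 markers of the ovarian soma, 3 or 4 passed 10 FPKM, with en and hh below it. All 5 muscle sheath markers passed it. Of 6 markers of late follicle cells, 4 to 6 passed it at the mRNA level, with Cp36 and Cp38 below it at 0.5 and 9 h AHS. All 6 passed in the Ribo-seq. Together these 6 summed to 12380 to 28990 FPKM at the mRNA level and to 28590 to 118800 FPKM in the Ribo-seq. The part of these other cells in the values of the 8 genes was not tested.

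A ribosome begins with transcription of rRNA by RNA polymerase I inside the nucleolus. The precursor is then cut, chemically modified by small nucleolar ribonucleoproteins (snoRNPs) and packed with ribosomal proteins. In the Drosophila ovary GSCs are known for high rRNA synthesis and large nucleoli, and ribosome production declines as their daughters differentiate. Tif-IA is the factor that makes RNA polymerase I competent to initiate. The udd product works with the TAF1B and TAF1C-like proteins at rRNA gene promoters. The wcd product belongs to the U3 snoRNP machinery that cleaves the precursor. Nop60B is the fly dyskerin, the pseudouridine synthase of box H/ACA snoRNPs, and Fib is fibrillarin, the methyltransferase of box C/D snoRNPs. The mod product, Modulo, is related to nucleolin, and Nopp140 is a snoRNP chaperone. Myc is the transcription factor that drives growth, and it binds DNA with its partner Max at a motif called the E-box. Pre-rRNA itself was not measured here, because rRNA had been depleted before sequencing and reads that matched non-coding RNA had been discarded.

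The E-box was searched first, since it is the sequence that Myc and Max bind. The motif CACGTG reads the same on both strands and was looked for from 250 bases before to 50 bases after the annotated start of each gene in the RefSeq annotation of release 6 (dm6). It was present at 4 of the 8 genes: wcd, Nop60B, Fib and Nopp140. The same window held it at 4.18% of 13285 protein-coding genes and at 5.01% of the 4731 genes that passed 10 FPKM at every time point in both assays and had an annotated start. The match began 31 bases after the first base of wcd, 30 after that of Fib and 18 after that of Nopp140, and Nop60B had 1 match 13 bases before and 1 match 22 bases after it. Tif-IA, udd, mod and Myc held no match in this window. The other genes of ribosome production were 49 from 7 lists, which also cover the Myc network. Of these, 29 held the motif (59.2%), and in 27 of them it began within 50 bases after the start. A match began there in 2.3% of the 4731 genes. The window ended 50 bases after the start, so matches further downstream could not be seen. The motif was found at 6 of 6 snoRNP proteins, 5 of 7 RNA polymerase I subunits and 8 of 12 genes of the small subunit processome. It was also found at 6 of 11 genes of large subunit assembly and 4 of 6 other nucleolar proteins. It was found at 0 of 2 RNA polymerase I initiation factors and 0 of 5 Myc network genes. For comparison, the DRE motif TATCGATA, a common element of Drosophila promoters, was present at 3 of the 8 genes (udd, wcd and Nop60B), at 9 of the 49 (18.4%) and at 18.3% of the 4731. A match is a description of the sequence and not a measured binding site. The windows below are from Nopp140, at chr3L:21832782-21832807 on the plus strand, and from 1 gene with the motif within 50 bases after its start in each of 5 lists, shown as an example, with the E-box in capitals and 10 bases on either side. The 5 listed genes were picked for that position, so the windows show only the motif and its flanks, which differ. RpI135 encodes the second largest subunit of RNA polymerase I, Nop56 a box C/D snoRNP core protein, CG11920 the fly counterpart of yeast Imp4, Ns1 a nucleostemin GTPase and mbm a nucleolar protein.
Nopp140: aagtagaaaaCACGTGtgagtgcgca
RpI135: ttccaaacaaCACGTGcgaaggaagg
Nop56: ttgaagtaagCACGTGggaaaacaac
CG11920: ttcaacagcaCACGTGcaaccagaaa
Ns1: agactattttCACGTGttcttgtttt
mbm: atcggctcaaCACGTGcgccgcaact

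**Figure D1:**
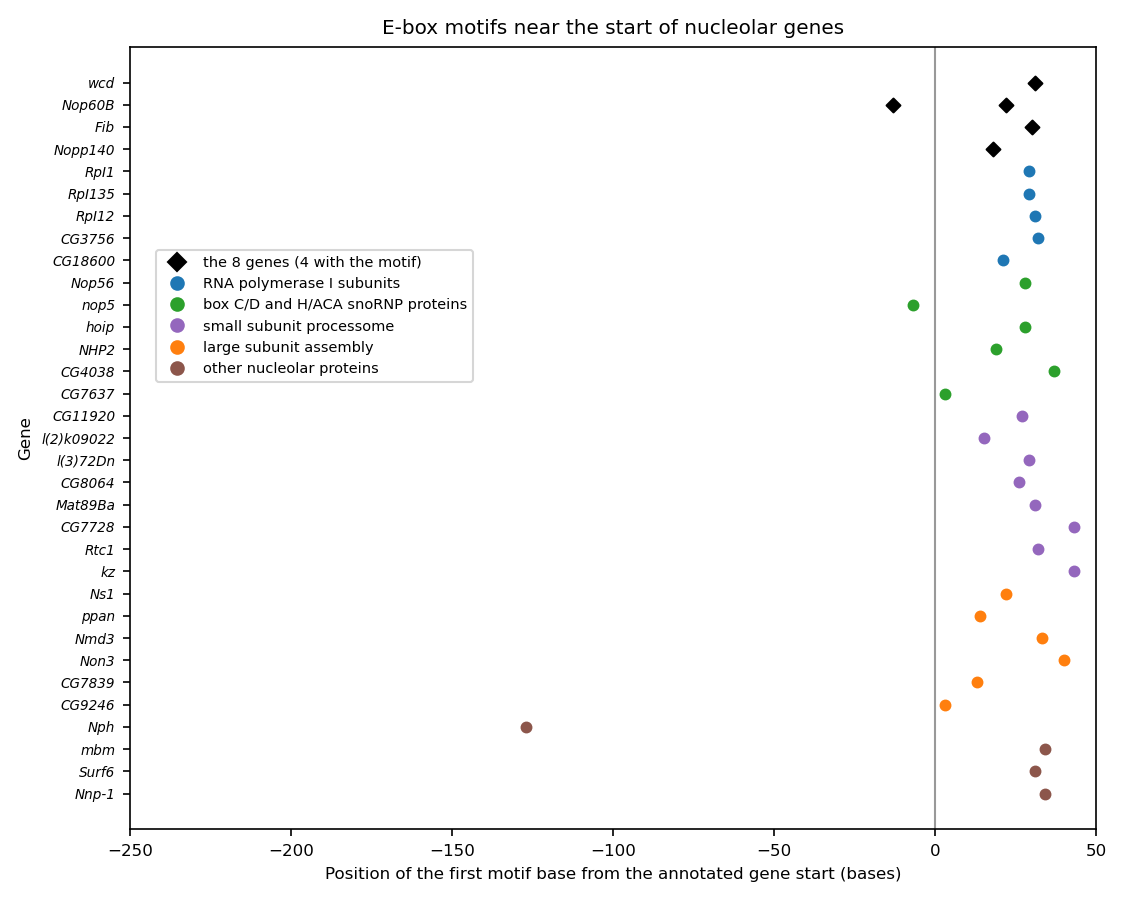
Position of each E-box from the annotated gene start, in bases, for the 4 of the 8 genes that held one (black diamonds) and for the 29 of 49 listed genes that did (circles, coloured by list). Nearly all lie within 50 bases after the start, and the exceptions are the upstream match of Nop60B, nop5 and Nph. A match began there in 2.3% of the 4731 genes above 10 FPKM throughout, and the search ended 50 bases after the start.

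At no HS the 8 genes differed widely in level. FPKM is scaled by length, so levels can be compared between genes. In the RNA-seq mod was highest at 199 FPKM (95% bounds 161 to 237) and Fib followed at 180.1 (145 to 215), and the bounds of these neighbours overlapped. Myc was at 115.9 FPKM (41.3 to 190), Tif-IA at 98.4 (79.2 to 117), Nop60B at 81.7 (61.8 to 102) and Nopp140 at 77.3 (56.3 to 98.3), and no bounds among these 4 were apart. The udd mRNA was at 30.9 FPKM (24.9 to 36.9) and the wcd mRNA at 23.1 (18.8 to 27.4). These 2 overlapped each other, and the bounds of both lay below those of the other 6 genes. Among the 5034 genes above 10 FPKM at every time point in both assays, the 8 ranged from percentile 27.7 (wcd) to percentile 95.01 (mod).

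The order in the Ribo-seq was not the same. At no HS mod was at 361 FPKM and Fib at 346.5, followed by Nop60B at 206 and Nopp140 at 108.7. The udd gene came next at 82.3 FPKM, ahead of Tif-IA at 46.5, Myc at 37.3 and wcd at 30.1. Among the 5034 genes the mRNA of Myc was at percentile 89.7 and its Ribo-seq at percentile 38.0. For Tif-IA these were 87.1 and 46.6. The udd gene stood the other way round, with its mRNA at percentile 44.0 and its Ribo-seq at 65.5.

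Ribo-seq FPKM divided by RNA-seq FPKM, called translation efficiency (TE) here, separated Tif-IA and Myc from the other 6 genes at every time point. The locus of each of the 8 genes in the Ribo-seq table spans the coding sequence alone, whereas the RNA-seq table covers whole transcripts, so the ratio sets ribosomes per coding length against fragments per transcript length. The ratio of Tif-IA was 0.473 at no HS and then, in the order of the 6 later collections, 0.562, 0.564, 0.503, 0.465, 0.405 and 0.430. That of Myc was 0.321 at no HS and then 0.289, 0.326, 0.333, 0.416, 0.339 and 0.340. At no HS these ratios stood at percentile 3.61 for Tif-IA and 0.914 for Myc among the 5034 genes, whose median was 1.50. For Tif-IA the interval of 2 standard errors at no HS ran from 0.348 to 0.643, and for Myc it reached 0.636. The other 6 genes had ratios above 1 at all 7 time points, as did 63.6% of the 5533 genes that stayed above 10 FPKM in the Ribo-seq. At no HS their ratios were 2.66 for udd, 2.53 for Nop60B, 1.92 for Fib, 1.81 for mod, 1.41 for Nopp140 and 1.31 for wcd. The low ratios thus belonged to 1 of the RNA polymerase I factors and to the transcription factor, and the values of the processing and modification genes were above 1. At no HS the intervals of wcd (0.951 to 1.79) and Nopp140 (0.997 to 1.98) included 1. That of Myc did so at 18 h AHS (0.160 to 1.08).

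The precision of the Myc ratio is set by its RNA-seq value. In that table Myc shares its locus entry, chrX:3373159-3573622, with 18 other genes, and its bounds lay 54.7% to 92.4% from its value, compared with 22.6% to 23.8% in the Ribo-seq. For Tif-IA, whose entry at chr2L:22249876-22258260 is its own, they lay 18.7% to 19.5% from the value. The median over all genes above 10 FPKM was 19.7% for RNA-seq and 25.5% for Ribo-seq values. The RNA-seq entry of Nopp140 (chr3L:21832774-21841356) includes P5CDh1, that of Nop60B (chr2R:24174877-24186343) includes 7 snoRNAs and that of Fib (chr2R:23072909-23074725) includes 1 snoRNA. The entry of udd (chr2R:8106385-8113949) runs past the annotated end of the gene at 8107373. The entries of wcd (chr2R:16345838-16347500) and mod (chr3R:32052060-32054974) hold these genes alone.

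**Figure D2:**
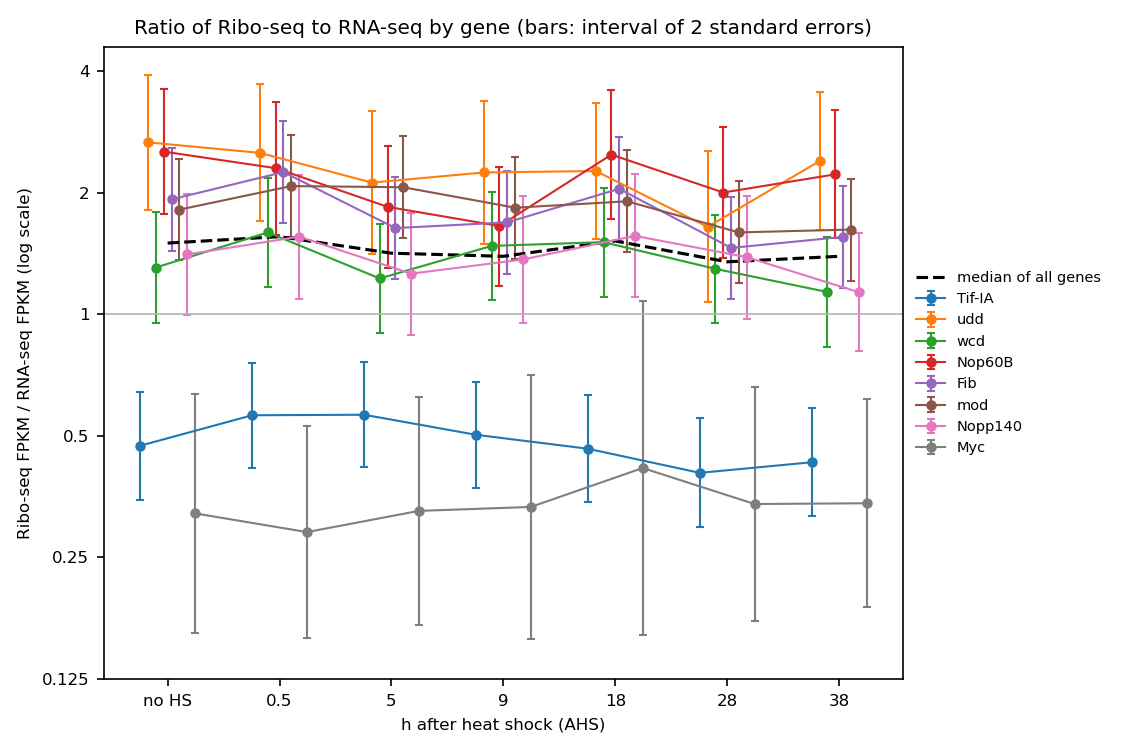
Ribo-seq FPKM divided by RNA-seq FPKM (log axis) for each of the 8 genes at the 7 time points, with intervals of 2 standard errors, and the median of the 5034 genes as a dashed line. The values of Tif-IA (0.405 to 0.564) and Myc (0.289 to 0.416) lie below 1 throughout, and those of the other 6 genes lie above it. Some intervals of wcd, Nopp140 and Myc include 1.

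Transcript features that could be read from RefSeq were set beside these ratios. Myc had a 5′ untranslated region of 627 bases, at percentile 91.4 of the 4732 genes with a matched transcript, and a 3′ untranslated region of 6385 bases in the longer of its 2 transcripts. It held 1 upstream ATG triplet, as many as the typical gene and as udd, the gene of highest ratio. Tif-IA had 223 bases upstream of its start codon (percentile 61.6) with 3 upstream ATG triplets, and the typical gene had 152 bases and 1 such triplet. The 2 genes of highest ratio had short 5′ regions, 71 bases in udd with 1 upstream ATG and 78 bases in Nop60B with none. No upstream ATG was found in wcd, Fib or Nopp140, whose 5′ regions were 105, 131 and 105 bases long. The mod gene went the other way, with 448 bases and 9 upstream ATG triplets in 1 of its transcripts and 115 bases with none in the other. Across the 4732 genes the ratio at no HS was lower where upstream ATG triplets were more frequent (Spearman rho -0.347 across genes, which are not independent replicates). The median ratio was 1.88 for 1936 genes without one, 1.34 for 2371 genes with 1 to 5, and 0.856 for 425 genes with more. The ratios of Tif-IA and Myc were below the lower quartile of their class, 0.877. The part of these features in the ratio of any 1 gene was not tested. At the start codon a purine stood 3 bases before the ATG in 8 of 8 genes, against 89.7% of all, and it was A in 7 of them, against 65.3% of all, with Myc as the exception. The contexts of the 4 genes that can be shown are given on the plus strand, with the start codon in capitals, at chr2L:22250089-22250104, chr3R:32052725-32052740, chr3L:21832869-21832884 and chrX:3374996-3375011 in the order of the lines.
Tif-IA: ttaatttaatATGtcc
mod: agctgtcaaaATGgcc
Nopp140: tgaattaatcATGaca
Myc: cataatcgcaATGgcc

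Against no HS, none of the 8 mRNAs passed the fold and level thresholds of the study at any of the 6 later time points. These are a change of more than 1.6-fold with more than 10 FPKM in at least 1 of the compared time points. The study also required a p-value, left out 0.5 h AHS and excluded heat shock and contaminant genes, which was not done here. In the RNA-seq 12.4% of 6618 tested genes passed at 1 or more of the 6 time points, and 7.89% passed at 0.5 h AHS. In the Ribo-seq none of the 8 genes passed, where 33.3% of 6778 tested genes did, and 18.1% passed at 0.5 h AHS. From 5 h AHS on, 1.84% to 2.82% of mRNAs and 5.69% to 13.7% of genes in the Ribo-seq passed at each time point. The bounds of each of the 8 genes overlapped those at no HS in both assays at all 6 time points, where 13.3% of all mRNAs and 18.6% of genes in the Ribo-seq had bounds apart at 1 or more. Taking each gene at its most distant time point, the largest differences in RNA-seq level from no HS were those of Myc at 9 h AHS (77.2 FPKM, log2 change -0.59), mod at 0.5 h AHS (152.1 FPKM, -0.39) and Tif-IA at 38 h AHS (77.4 FPKM, -0.35). The largest in Ribo-seq level, taken in the same way, were those of Fib at 28 h AHS (226.9 FPKM, log2 change -0.61, interval of 2 standard errors -1.05 to -0.17), Tif-IA at 28 h AHS (32.1 FPKM, -0.54, interval -1.03 to -0.04) and Myc at 9 h AHS (25.8 FPKM, -0.53, interval -1.01 to -0.06). These 3 were the only changes of level from no HS among the 8 genes whose interval lay to 1 side of 0, and 41.3% of all genes in the Ribo-seq and 28.7% in the RNA-seq had such an interval at 1 or more time points. Each deposited value pools both replicates, so no test across replicates could be made, and a fold that misses the threshold does not show that levels were equal. All comparisons with no HS share the same no HS libraries.

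**Figure D3:**
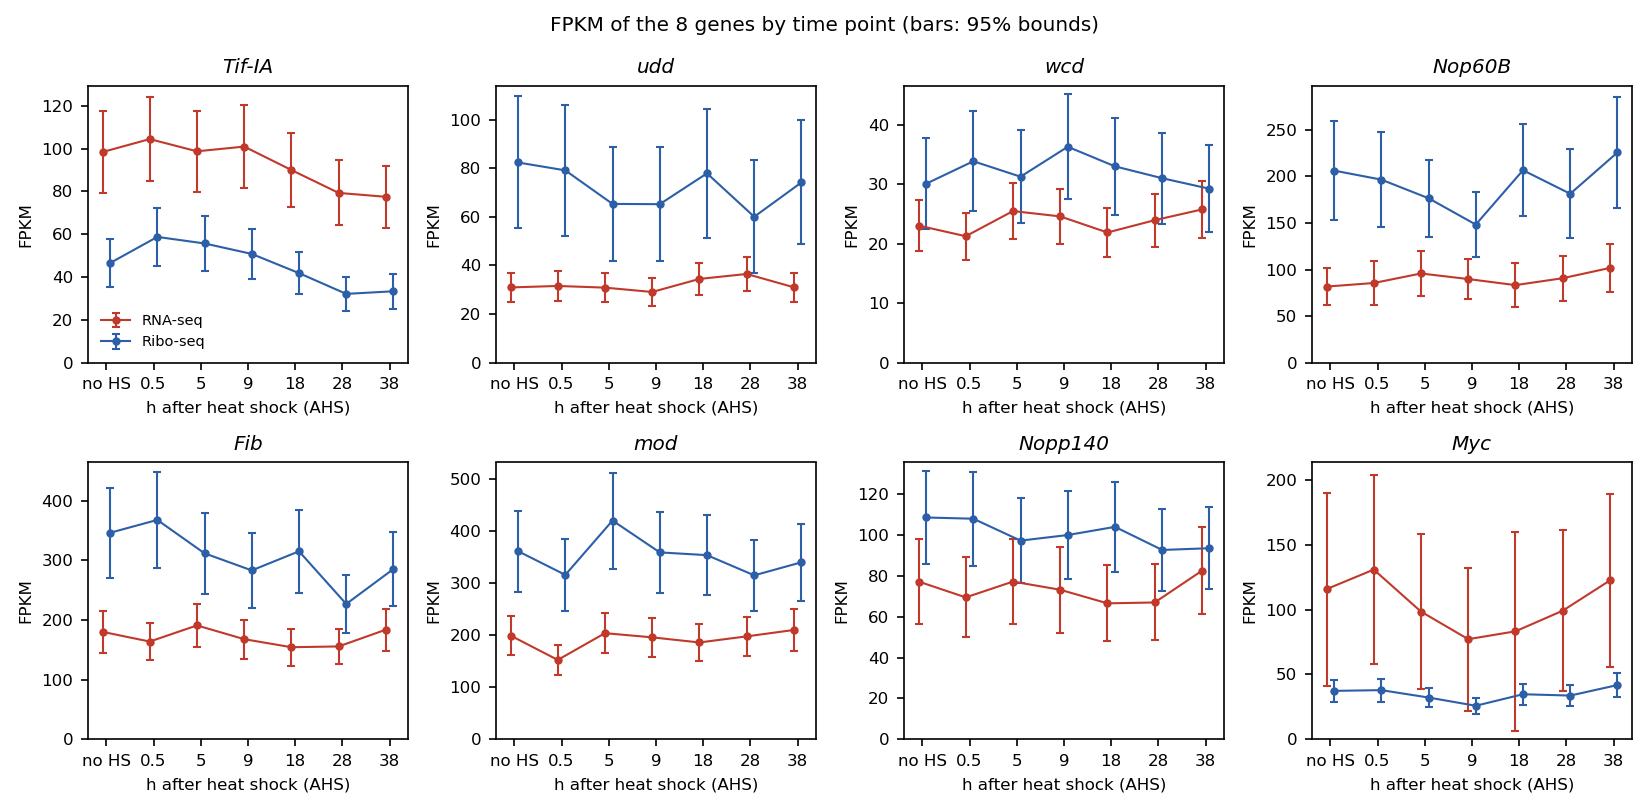
FPKM of the 8 genes in the RNA-seq (red) and Ribo-seq (blue) at the 7 time points, with bars for the 95% bounds and each axis starting at 0. Only Tif-IA and Myc have Ribo-seq values below their RNA-seq values, and the Ribo-seq of Tif-IA goes from 58.7 FPKM at 0.5 h to 32.1 FPKM at 28 h AHS.

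Tif-IA, the RNA polymerase I initiation factor, spanned the widest range of the 8 genes in the Ribo-seq. It was at 46.5 FPKM at no HS, and the values 0.5, 5, 9, 18, 28 and 38 h AHS were, in that order, 58.7, 55.6, 50.8, 41.8, 32.1 and 33.3 FPKM. The 3 collections up to 9 h AHS thus lay above no HS and the 3 later ones below it. The bounds at 0.5 h (45.1 to 72.3) were apart from those at 28 h (24.3 to 39.9), a difference of 1.83-fold (interval 1.31 to 2.56). Of the 21 pairs of time points, 4 had bounds apart, namely 0.5 h and 5 h each against both of the last collections. The Tif-IA mRNA was highest at the same time, 104.4 FPKM at 0.5 h, and lowest at 38 h with 77.4, a range of 1.35-fold with overlapping bounds. Its ratio of the 2 assays ranged over 1.39-fold (interval 0.905 to 2.14).

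The other gene of rRNA transcription, udd, varied less in level. Its mRNA went from a minimum of 29.1 FPKM at 9 h AHS to a maximum of 36.5 FPKM at 28 h AHS. Its Ribo-seq was at 82.3 FPKM at no HS and then at 79.1, 65.3, 65.2, 77.9, 60.0 and 74.1 FPKM, and no pair of bounds was apart. At 28 h AHS its mRNA was at its highest and its Ribo-seq at its lowest. The TE of udd fell by 0.69 on the log2 scale at that time, from 2.66 to 1.65, which was the 1 TE change among the 8 genes past 1.6-fold at any time point. Over all genes 22.6% of 6584 passed at 1 or more time points, and 5.57% were lower at 28 h AHS, when the median over the 5034 genes was -0.14. The interval of the udd change ran from -1.53 to 0.14, and with each time point rescaled to the same median the change was -0.57, under the threshold.

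Of the precursor processing and modification genes, Fib had the widest Ribo-seq range. Fibrillarin was at 346.5 FPKM at no HS and then at 368, 312, 283, 315.4, 226.9 and 285.7 FPKM. The bounds at 0.5 h (288 to 448) and at 28 h (178 to 276) were apart, a difference of 1.62-fold (interval 1.19 to 2.21), and this was its only such pair of 21. Its mRNA ranged from 154.3 FPKM at 18 h to 190.9 at 5 h AHS, a 1.24-fold range. The TE of Fib ranged over 1.54-fold (interval 1.02 to 2.32), from 2.25 at 0.5 h to 1.46 at 28 h AHS. Without 0.5 h AHS the Ribo-seq range of Fib was 0.61 on the log2 scale, and with rescaled time points it was 0.56, both under 1.6-fold.

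Nop60B, the pseudouridine synthase, had its lowest Ribo-seq at another time. It was at 206 FPKM at no HS and then at 197, 177, 148, 207, 181 and 226 FPKM, which placed the minimum at 9 h AHS. The bounds at 9 h (113 to 183) and 38 h (166 to 286) overlapped, and the range was 1.52-fold (interval 1.07 to 2.17). Its mRNA was lowest at no HS (81.7 FPKM) and highest at 38 h AHS (101.7). The TE of Nop60B at 9 h AHS was 1.65, a log2 difference from no HS of -0.61 (interval -1.32 to 0.10).

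The wcd, mod and Nopp140 genes stayed within 1.38-fold in both assays. In the Ribo-seq wcd lay between 29.3 FPKM at 38 h and 36.3 at 9 h AHS. Nopp140 lay between 92.8 FPKM at 28 h AHS and 108.7 at no HS, the narrowest range of the 8 at 1.17-fold. Modulo was at 361 FPKM at no HS and then at 315.6, 420.0, 359, 353.5, 314.7 and 339.8 FPKM, with all bounds overlapping. In the RNA-seq its level was 152.1 FPKM at 0.5 h AHS (bounds 123 to 181) and between 185.7 and 209.7 at the other 6 time points. The range of the mod mRNA was 1.38-fold (interval 1.05 to 1.81) with overlapping bounds.

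Myc, the regulator of growth, was lowest at 9 h AHS in both assays. Its Ribo-seq was at 37.3 FPKM at no HS and then at 37.8, 32.1, 25.8, 34.7, 33.6 and 41.8 FPKM. The lowest value was thus at 9 h and the highest at 38 h AHS, and the bounds at these times, 19.6 to 31.9 and 32.3 to 51.2, were apart (1.62-fold, interval 1.17 to 2.25). With a pseudocount of 1 FPKM the range was 0.68 on the log2 scale, just under the threshold. The Myc mRNA was at 115.9 FPKM at no HS and then at 131, 98.5, 77.2, 83.3, 99.2 and 122.6 FPKM. This order of time points was close to that of the Ribo-seq, and its range of 1.70-fold carried an interval from 0.685 to 4.20. Without 0.5 h AHS it was 0.67 on the log2 scale, under the threshold.

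Counted over the 8 genes, 3 spanned more than 1.6-fold between their highest and lowest Ribo-seq value, all 3 with bounds apart, namely Tif-IA, Fib and Myc. Over all genes 55.5% of 6777 spanned more than 1.6-fold and 35.5% did so with bounds apart. In the RNA-seq 1 of the 8 did so, Myc, against 22.1% of 6608 genes, and the bounds of Myc overlapped where 17.5% of all genes had them apart. The Ribo-seq was lowest at 28 h AHS in 5 of the 8 genes (Tif-IA, udd, Fib, mod and Nopp140), as it was in 15.1% of all genes. These 5 values come from the same libraries. At 28 h AHS 7 of the 8 genes were below no HS in the Ribo-seq, with a median log2 change of -0.21, where the median over the 5034 genes was -0.07. The mRNA was highest at 38 h AHS in 4 of the 8 (wcd, Nop60B, mod and Nopp140), as in 16.7% of all genes. At 38 h AHS 7 of the 8 mRNAs were above no HS, Tif-IA being the exception, with a median log2 change of 0.08 beside 0.06 over the 5034 genes, and 5 of the 8 lay above that all-gene median. At the same time 7 of the 8 TE values were below no HS, Myc being the exception, with a median of -0.18. At 28 h AHS 7 of the 8 TE values were also below it, again all but Myc, with a median of -0.21. The share of all genes on each side of no HS was not counted. The median log2 TE change of the 5034 genes was itself -0.14 after 28 h and -0.10 at the last collection.

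The genes whose time course was most like those with a wide range were found by Pearson correlation of log2 FPKM over the 7 time points, among 5557 genes in the Ribo-seq and 5803 in the RNA-seq. In the Ribo-seq Tif-IA was closest to CG32075 (r = 0.988), Su(var)2-10 (r = 0.979) and nmd (r = 0.978), each highest at 0.5 h and lowest at 28 h AHS. Fib was closest to lwr (r = 0.993), CG8939 (r = 0.984) and p47 (r = 0.98), with the same extremes. Of these lwr, the gene of the SUMO conjugating enzyme, ranged from 640 to 337 FPKM. Myc was closest to CG3662 (r = 0.98), Faf2 (r = 0.967) and Mdh1 (r = 0.966) in the Ribo-seq and to Tsr1 (r = 0.986), for (r = 0.982) and NijA (r = 0.978) in the RNA-seq. The correlation does not weigh the size of a change. Among the genes named as most like a member, the range was widest for lwr (1.9-fold), followed by Mdh1 (1.78-fold). It was narrowest for Su(var)2-10 (1.14-fold) and for (1.26-fold). Between 51 and 65 genes had r above 0.9 with each of the Tif-IA, Fib and Myc profiles, and the 7 points of every profile share their libraries.

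Few of the 49 listed genes of ribosome production and the Myc network were called. In the RNA-seq 0 of the 48 that passed 10 FPKM were called at any time point, beside 12.4% of all genes at 1 or more. In the Ribo-seq 1 of 49 was higher at 0.5 h AHS, where 10.5% of all genes were, and 1 was lower at 5 h AHS, where 6.47% were. The first was Non1, a nucleolar GTPase of large subunit assembly, which rose from 98.9 FPKM (77.9 to 119.9) to 173.9 (136 to 212) with bounds apart. Its mRNA was at 258.5 FPKM at no HS and 284.9 at 0.5 h AHS. The second was Max, the partner of Myc, named because it was the only other call. It fell from 127.1 FPKM (93.3 to 161) to 77.8 (53.0 to 103) with overlapping bounds, and no longer passed with rescaled time points. Its mRNA was at 13.3 and 16.0 FPKM.

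By list, the median log2 change of the Ribo-seq at 28 h AHS was -0.10 for the 7 RNA polymerase I subunits, -0.28 for the 6 snoRNP proteins, 0.04 for the 2 RNA polymerase I initiation factors, 0.02 for the 12 small subunit processome genes, -0.21 for the 11 genes of large subunit assembly, -0.21 for the 6 other nucleolar proteins and -0.22 for the Myc network, beside -0.06 over all genes tested. Over the 49 genes it was -0.15 with 34 below no HS. At 38 h AHS 35 of the 49 were below no HS in the Ribo-seq (median -0.11, all genes -0.04). At 38 h AHS the mRNAs of 42 of 48 listed genes were above no HS (median 0.13, all genes 0.06). At 5 h AHS the count was the same, 42 above and 6 below (median 0.08, all genes 0.04). The TE of 42 of 48 was below no HS at 38 h AHS (median -0.23, all genes -0.10). The share of all genes on each side of no HS was not counted. No TE among the 48 was called higher at any time point, as 7.81% of all genes were at 1 or more. The lower TE calls numbered 1 at 5 h AHS, where 3.85% of all genes were lower, and 3 at 9 h AHS, where 8.23% were. They numbered 2 at 28 h AHS (5.57% of all genes) and 5 at 38 h AHS (5.79%). They fell on 6 genes, which were named after their values were seen: Max, the RNA polymerase I subunit genes l(2)37Cg and CG13773, eIF6, which keeps the ribosomal subunits apart, and the nucleolar protein genes Nph and Surf6. Only for Nph at 9 h AHS did the interval stay below 0 (log2 change -1.09, interval -1.92 to -0.25).

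Ribosomal protein genes are the other large class of ribosome production. Of 86 cytosolic ribosomal protein genes tested in the Ribo-seq, 28 fell at 9 h and 19 at 28 h AHS, with median log2 changes of -0.47 and -0.49. Over all genes 8.96% and 4.87% were lower at these times. In TE 18 of 85 fell at 9 h AHS, with a median of -0.40, where 8.23% of all genes were lower and their median was -0.05. The median of the 8 nucleolar growth genes was then -0.01. At 28 h AHS 31 of 85 fell in TE, with a median of -0.60, where 5.57% of all genes were lower and their median was -0.12. The median of the 8 genes was then -0.21. The 8 genes and the 49 listed genes had no Ribo-seq call at either time. At 38 h AHS the TE median was -0.21 for the ribosomal proteins and -0.23 for the 49 listed genes. The difference between these classes was not tested.

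**Figure D4:**
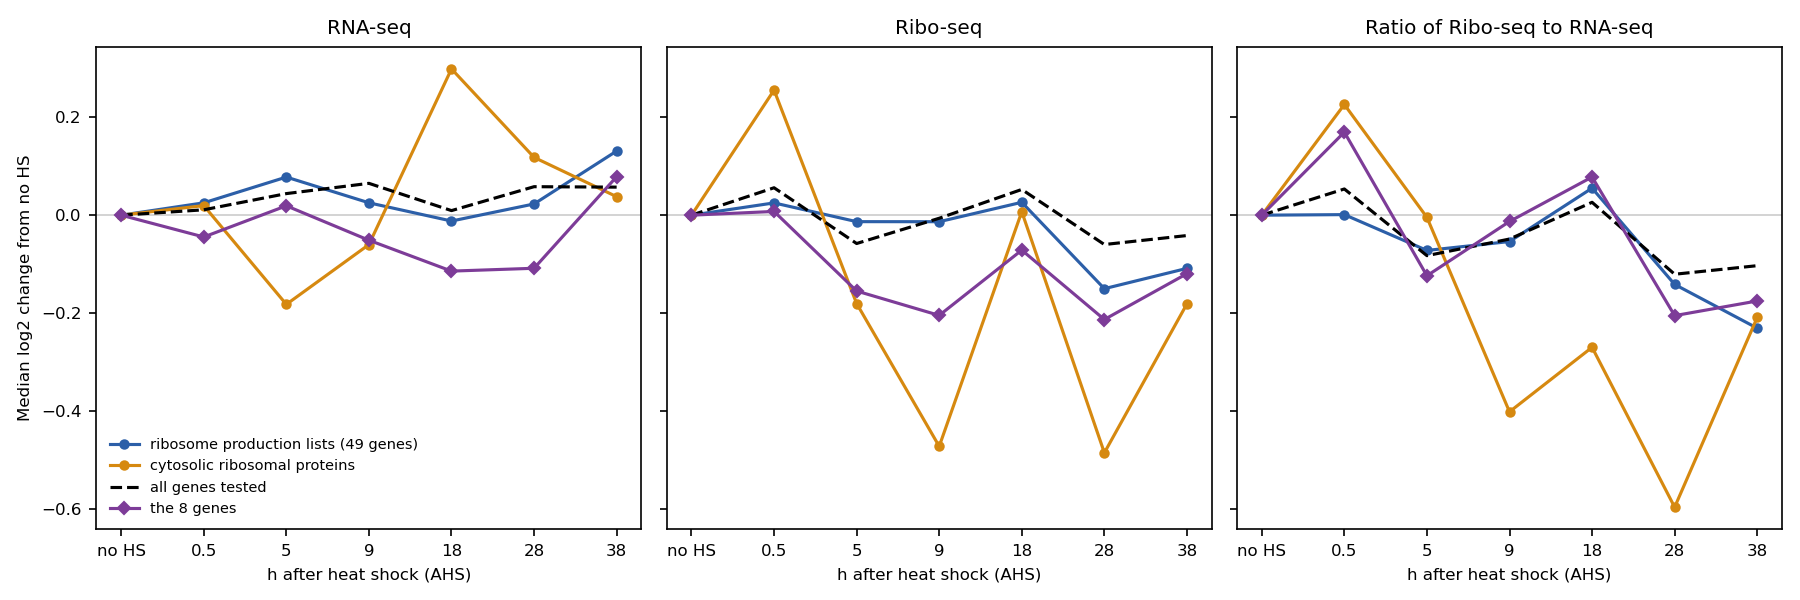
Median log2 change from no HS in the RNA-seq, the Ribo-seq and their ratio for the 8 genes (purple diamonds), the 49 listed genes (blue), the cytosolic ribosomal proteins (orange) and all genes tested (dashed). In the Ribo-seq the ribosomal proteins reach -0.47 at 9 h and -0.49 at 28 h AHS, when the 8 genes are at -0.20 and -0.21 and the 49 at -0.01 and -0.15.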

How the data were processed

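RNA-seq and Ribo-seq libraries of whole ovaries were processed by the authors, who trimmed adapters, collapsed identical reads and removed random end bases in the Ribo-seq, discarded reads that matched non-coding RNAs (Bowtie2 in the RNA-seq, Bowtie in the Ribo-seq), mapped the rest to dm6 with STAR and ran Cuffdiff 2.2.1. Before library preparation, rRNA had been depleted in both assays with complementary oligonucleotides and RNase H. The deposited unit is FPKM, 1 value per gene and time point over both replicates, with 95% bounds 2 standard errors from the value. Read counts per library were not used here, so depth per library is unknown and precision was read from the bounds, which include no separate replicate values. The library normalization and annotation are not given in the sources used here. In the Ribo-seq table the locus equalled the RefSeq coding span without the stop codon for 96.9% of 4732 matched genes.

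Fold changes, ratios and delta-method intervals of 2 standard errors were computed with Python 3.11.15, numpy 2.4.6 and pandas 2.3.3 over genes with rows in both tables and tested on simulated data. Starts in the tables count from 0 and were printed 1-based. A call needed more than 1.6-fold and more than 10 FPKM in at least 1 of the compared time points (RNA-seq FPKM for TE). The study also required a p-value, left out 0.5 h AHS and excluded heat shock and contaminant genes, which was not done here. Named genes were the 8, listed genes past 1.6-fold with bounds apart (at most 2 in each direction per list and assay), and the 3 genes most correlated with each member of wide range. The 8 genes and the lists were chosen with earlier results of these data known. Of the 49 listed genes, 3 were matched through RefSeq synonyms. Transcript features used the transcript with the longest coding sequence, and sequences are from RefSeq, release 6.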

Additional observations from a re-analysis of the deposited data

How the results depend on the processing

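No paired analysis was possible because each deposited value pools both replicates, and for the same reason leaving out single replicates was not run. The counts of members called in the RNA-seq and Ribo-seq stayed at 0 with a fold of 2, FPKM minimums of 20 or none, a pseudocount of 1 FPKM, rescaled time points and bounds required apart. The TE count was 1 and became 0 with a fold of 2, with rescaling and with an interval that excludes 0. Without 0.5 h AHS the RNA-seq count of ranges over 1.6-fold went from 1 to 0, and the Ribo-seq count from 3 to 2. The share of all genes also fell, from 22.1% to 10.8% in the RNA-seq and from 55.5% to 38.3% in the Ribo-seq. For the listed genes a fold of 2 left 0 Ribo-seq calls and 1 TE call of 6, and rescaling left 1 Ribo-seq call of 2. Over all genes a fold of 2 called 14.9% in the Ribo-seq and 7.7% in TE, and rescaling called 32.6% in the Ribo-seq. Rescaling moved no time point by more than 0.08 on the log2 scale. No result reversed. Of the 3 genes named as most like a member, 0 to 2 stayed among the first 3 by Spearman correlation or without 0.5 h AHS. The cause of these losses was not tested.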
